A study of Mus musculus with 4 samples.

Results

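The autophagy and lysosome genes described here are 48 genes of the count table, chosen by name as rows whose gene symbol equals an entry of a fixed list, out of 52459 genes listed. They fall into 28 autophagy genes, 12 cathepsins and other proteins of the lysosomal lumen, 4 proteins of the lysosomal membrane and 4 subunits of the proton pump. RNA was measured in intestinal stem cells (ISCs) of female C57/Bl6 wild-type mice, sorted as EPCAM+, EPHB2high, CD166+, CD44high, CD24med, GRP78low, CD31- and CD45- cells. The young group (ISC_2mth) held mice of 2 months and the old group (ISC_22mth) mice of 22 months, with 2 pools of 5 animals per age and no treatment. Full-length cDNA was made by single primer isothermal amplification (SPIA) and 1 library was sequenced per pool. The spread between pools is therefore the only replicate error. Because the samples are bulk RNA, fewer cells of a type and less RNA per cell cannot be told apart.

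In autophagy, a membrane sac called the phagophore grows around cytoplasm or organelles, closes to an autophagosome and fuses with the lysosome, where the contents are digested. The ULK1 kinase complex starts the process, a lipid kinase complex around Beclin 1 marks the membrane, and a pair of ubiquitin-like conjugation systems attaches ATG8 proteins (LC3 and GABARAP) to it. Cathepsins are the lysosomal proteases, the V-ATPase pump acidifies the lumen, and the transcription factors TFEB and TFE3 switch on many genes of both organelles. In the intestinal epithelium autophagy is best known from Paneth cells, whose granule release depends on ATG16L1, and it also sustains ISCs.

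TFEB and TFE3 bind short promoter elements built around CACGTG, a palindrome that reads the same on both strands, and the 8-letter form TCACGTGA contains it. RefSeq promoter windows on GRCm38.p6, from 250 bases before to 50 bases after each start, were matched by symbol for 36 of the 48 genes. CACGTG stood in the windows of 13 of these 36 genes (36.1%), against 8.09% of 27025 genes in the table and 7.15% of its 32851 windows. TCACGTGA stood in 6 of the 36 (16.7%), against 1.12% of all genes and 0.974% of all windows. The 6 genes were Atg3, which attaches ATG8 proteins to lipid, Atp6v0d1 and Atp6v1a of the pump, the proteases Ctsa and Ctsd, and the lysosomal calcium channel gene Mcoln1. Stretches upstream of 5 of the starts are printed 5′ to 3′ on the gene's strand, to show the element that these genes of different role have in common, with TCACGTGA in capitals.
Atg3 (chr16:45158721-45158800, + strand): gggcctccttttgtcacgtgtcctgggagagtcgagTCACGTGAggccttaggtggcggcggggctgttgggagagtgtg
Atp6v1a (chr16:44139348-44139427, - strand): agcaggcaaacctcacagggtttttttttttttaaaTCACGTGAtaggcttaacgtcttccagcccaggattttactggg
Ctsa (chr2:164833724-164833772, + strand): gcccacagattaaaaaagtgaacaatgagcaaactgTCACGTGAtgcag
Ctsd (chr7:142387883-142387962, - strand): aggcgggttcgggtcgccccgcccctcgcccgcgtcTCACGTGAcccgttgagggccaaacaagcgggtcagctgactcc
Mcoln1 (chr8:3500437-3500516, + strand): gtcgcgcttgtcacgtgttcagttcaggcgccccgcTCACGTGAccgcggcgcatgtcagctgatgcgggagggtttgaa

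The printed Atg3 and Mcoln1 stretches also hold a second CACGTG, in lower case, upstream of the 8-letter match. In the 5 printed stretches the first base of the 8-letter match lay between 13 bases (Ctsa) and 132 bases (Atp6v1a) before the start, and the match of Atp6v0d1, which crosses the start, is not printed. Ctsa has a further annotated start, which the match follows. A match of letters is a description and not a measured binding site. The genes were chosen for pathways that TFEB and TFE3 are known to switch on, so their higher share is no independent test.

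The 4 libraries held 11662654 to 15975698 counts, of which genes of the mitochondrial genome took 62.6% to 65.7% in the young pools and 72.9% to 73.8% in the old ones. Outside the mitochondrial genome 3852178 to 4593004 counts remained per library. Levels are given as CPM, read counts scaled to a common library size, after TMM normalization (normalized CPM below), which sets the bulk of genes equal between libraries. A count of 3, taken as the limit of detection, equalled 0.199 to 0.246 normalized CPM. Reads carried no molecular identifiers, so counts are not independent molecules and these limits cover counting error only. The 13 ISC markers, among them Lgr5, Ascl2 and Olfm4, summed to 3526 to 3709 normalized CPM in the young pools and 3459 to 3760 in the old ones, most of it from Olfm4 and Slc12a2. None of the 13 passed the test between ages, but at an unadjusted p under 0.05 Ascl2 and Slc12a2 were higher and Axin2, Ephb2, Rnf43 and Sox9 lower in both old pools. Of these Axin2, a Wnt target gene, had the lowest p, with 149 and 128 normalized CPM in the young and 102 and 98.6 in the old pools (log2 fold change -0.46, edgeR adjusted p = 0.0511). The part of these differences in the autophagy and lysosome genes was not tested. The paper's list of differentially expressed genes, from these libraries, holds Axin2, Ephb2, Rnf43 and Slc12a2 of the 13 markers. Markers of fibroblasts and endothelium summed to 6, 20, 15 and 14 counts in the young pools 1 and 2 and the old pools 1 and 2, in that order, with 5 of 9 at 0 in every library.

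The young and old ISCs expressed nearly the whole set. Of the 48 genes, 46 passed the filter on low counts, which asked for over 5 reads and over 1 CPM in any library. Bnip3, a mitophagy receptor, had 2, 2, 2 and 0 counts and Ctse, an aspartic protease of the endosome, had 3, 2, 0 and 1 counts. Both stood at or below the detection limit in every library, so no fold change was given for either. Bnip3 shared 47.2% of its 50-base stretches with other genes of the annotation, so its reads may have gone uncounted or to those genes.

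Levels between genes were compared per kilobase of exon, as normalized CPM per kb averaged over the 4 pools. The length was that of all annotated exons of a gene joined, which can exceed that of the transcripts expressed. Lamp1 (2.675 kb) and Lamp2 (9.552 kb) had similar normalized CPM, so their order per kb rests on this length. Lamp1, the most abundant glycoprotein of the lysosomal membrane, was highest of the 48 at 36.8 CPM per kb, with 34.4 and 37.5 in the young and 36.5 and 38.6 in the old pools. Gabarap, an ATG8 protein, came next at 18.8 CPM per kb, with a range of 17.9 to 20.0 over the pools. The protease genes Ctsb and Ctsz followed with 11.2 and 10.8 CPM per kb, and Lamp2 with 10.5. The ranges over the 4 pools of Ctsb, Ctsz and Lamp2 overlapped, so their order was not resolved.

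At the other end, Tfeb had 0.365 CPM per kb and its relative Tfe3 had 1.19 CPM per kb. The lowest Tfe3 pool, at 0.923 CPM per kb, was above the highest Tfeb pool, at 0.526. Of the ATG8 genes, Gabarap at 18.8 CPM per kb stood above Gabarapl1 (2.08), Map1lc3b (1.73), Gabarapl2 (1.12) and Map1lc3a (0.568) in every pool. Among the autophagy receptors, which tie cargo to ATG8 proteins, Nbr1 had 7.93 CPM per kb and Sqstm1, the gene of p62, 1.81 CPM per kb. The cathepsins ranged from 11.2 (Ctsb) through 3.87 (Ctsd) to 0.618 CPM per kb (Ctsl), leaving out Ctse.

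**Figure D1:**
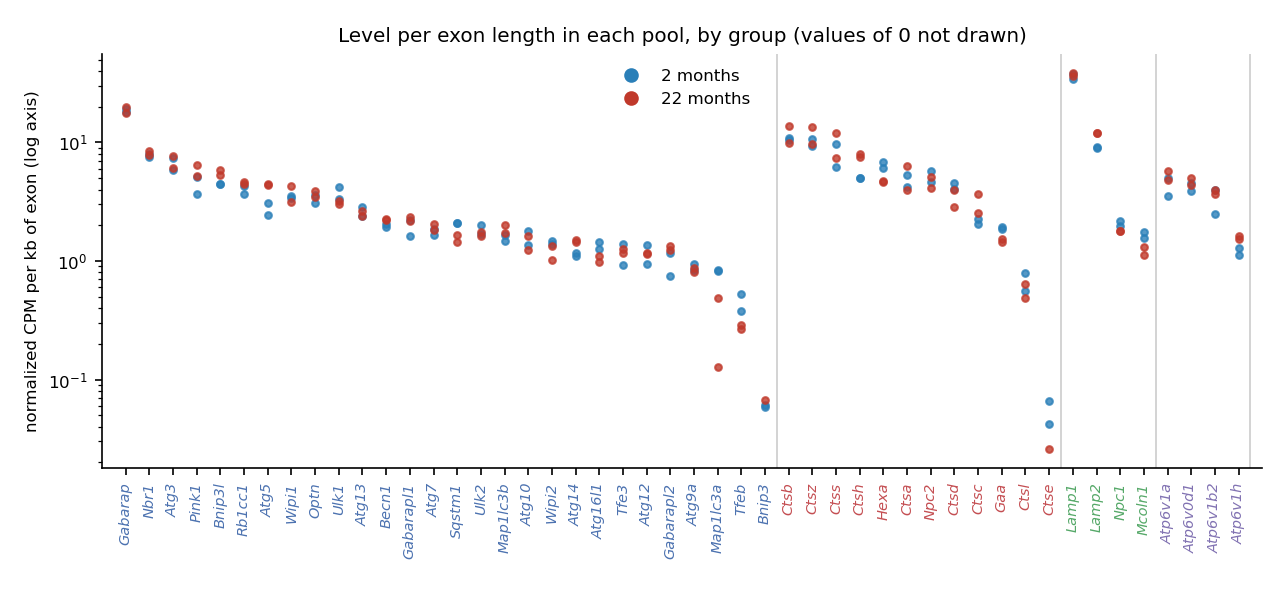
Normalized CPM per kb of exon (log axis) for the 48 genes, ordered by level within the autophagy, cathepsin and lumenal, lysosomal membrane and proton pump groups. Each point is 1 pool, blue for 2 months and red for 22 months, values of 0 are not drawn, and Lamp1 stands highest at a mean of 36.8 CPM per kb while Bnip3 and Ctse lie lowest in their groups.

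The comparison of old with young ISCs asked whether any of these genes changed with age. It was fitted by edgeR's quasi-likelihood test on all 13692 genes kept, with Benjamini-Hochberg adjustment over them and a threshold of 0.05. Of the 46 genes tested, 1 passed (Ctsh, higher in old ISCs) and 0 were lower. That is 2.17%, against 2.26% of all genes tested in either direction, 1.63% higher and 0.628% lower. At an unadjusted p under 0.05, 5 were higher and 2 lower in old ISCs, or 15.2% against 16.9% of all genes (9.26% higher and 7.65% lower). Of the 46, DESeq2 called 0 higher (1.07% of all genes), the likelihood ratio test 1 (2.74%) and limma voom with sample weights 2, Ctsh and Lamp2 (1.78%), and each called 0 lower.

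Apart from Map1lc3a, which was near the detection limit, the fitted differences ran from -0.70 (Tfeb) to 0.68 (Atg5) on the log2 scale. The log2 fold change of old over young was above 0 for 28 and below 0 for 18, with a median of 0.09, beside 49.5% above 0 and a median of -0.0049 over all genes tested. The old pools were both above the young ones for 12 genes (24.0% of all genes tested), both below for 11 (23.6%), and the ages overlapped for 23. The 23 genes with no overlap are 50.0% of the 46, beside 47.6% of all genes tested. The 95% interval of the log2 fold change reached less than 0.5 to either side for 36 of the 46 genes, with a median reach of 0.41. With total counts in place of TMM, the median of all genes tested shifted by -0.50 on the log2 scale, and the 46 then had 3 differences above 0 but 29 above that shift. On that scale 15 of the 46 were called lower, beside 33.3% of all genes.

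**Figure D2:**
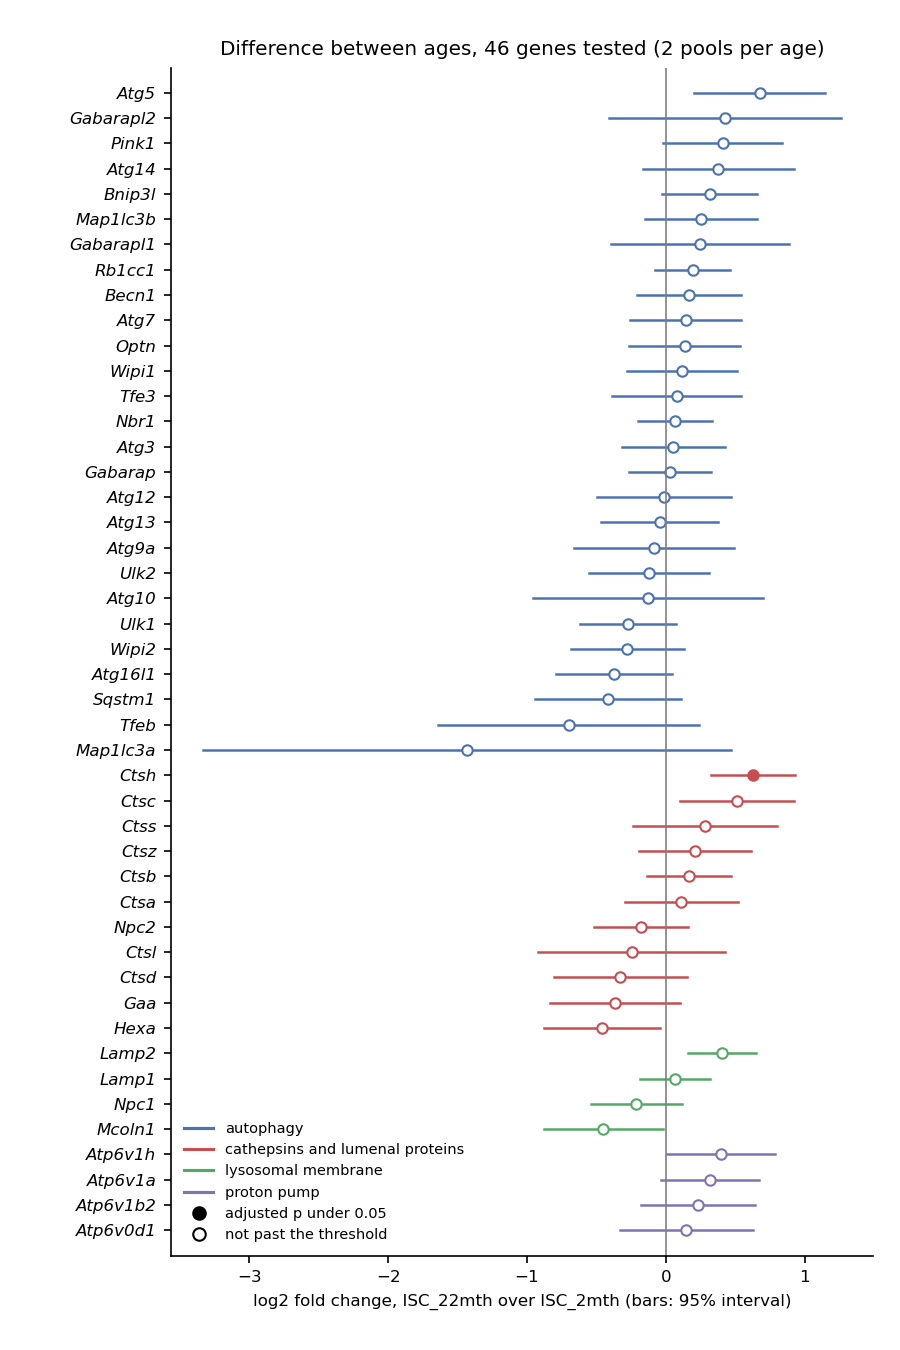
Log2 fold change of old over young ISCs (TMM, horizontal axis) for the 46 genes tested, with bars for the 95% interval, from 2 pools per age, in the colours of the 4 groups. The filled point, Ctsh at 0.63, is the gene with an adjusted p under 0.05; with total counts as the scale most points move below 0, since the median of all genes shifts by -0.50.

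Autophagy genes showed no called change. Of the 28 genes 27 were tested and 0 passed, beside 2.26% of all genes. An unadjusted p under 0.05 was found for 1 (Atg5), or 3.70% beside 16.9% of all genes. Of the differences 16 were above 0 and 11 below, with a median of 0.07. Total counts turned this median to -0.43, or 0.07 above the shift shared by all genes.

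The initiation genes encode the ULK1 complex. Ulk1, the kinase, had 27.2 and 21.5 normalized CPM in the young pools and 19.7 and 20.6 in the old pools. The old pools lay below the young ones, with a log2 fold change of -0.27 (95% interval -0.62 to 0.07, edgeR adjusted p = 0.427), which ranged from -0.44 to -0.094 without 1 pool. Rb1cc1, the scaffold FIP200 of that complex, had 62.9 and 54.1 normalized CPM in the young and 66.1 and 67.7 in the old pools. Its difference of 0.19 (-0.08 to 0.46) had the opposite sign under TMM and ranged from 0.08 to 0.31 without 1 pool. Relative to the shift of all genes with total counts the signs were the same as under TMM, 0.19 for Rb1cc1 and -0.28 for Ulk1. Ulk2 and Atg13 overlapped between ages. The median of these 4 genes was -0.08, with 1 above 0 and 3 below.

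The genes of phagophore nucleation, Becn1, Atg14, Atg9a, Wipi1 and Wipi2, lay at 0.11 by the median of their log2 fold changes, 3 of them above 0 and 2 below. None had an unadjusted p under 0.05, beside 16.9% of all genes. Becn1 (Beclin 1) and Atg14, its partner in the lipid kinase complex, had both old pools above both young ones, and Wipi2, which binds the lipid, had both below.

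The conjugation genes attach ATG12 to ATG5 and ATG8 proteins to lipid. Atg5 (chr10:44268358-44364291) had 7.24 and 5.76 normalized CPM in the young pools and 10.3 and 10.5 in the old pools, from 87 to 136 counts. Both old pools lay above both young ones, with means of 6.50 ± 1.05 and 10.4 ± 0.135 (SD, n = 2 per age) and a log2 fold change of 0.68 ± 0.23 (SE). Its interval of 0.20 to 1.15 stood above 0, but the edgeR adjusted p of 0.129 missed the threshold.

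Atg16l1, the partner that brings the ATG12-ATG5 conjugate to the membrane, had 12.1 and 13.8 normalized CPM in the young and 9.46 and 10.6 in the old pools. It lay on the other side from Atg5, with both old pools below both young ones and a log2 fold change of -0.37 (-0.79 to 0.04, edgeR adjusted p = 0.359). Atg3, Atg7, Atg10 and Atg12, the enzymes and the ubiquitin-like protein of the same pathway, all overlapped between ages, with a median of 0.02 over the 6 conjugation genes.

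The ATG8 genes split by level. Gabarap had 33.3 and 35.3 normalized CPM in the young and 32.9 and 36.9 in the old pools. The ages overlapped, and the log2 fold change of 0.03 had an interval of -0.27 to 0.32. Its sign turned with total counts, the upper quartile and the GC offsets. Map1lc3b, the gene of LC3B, had 12.6 and 11.1 normalized CPM in the young and 13.0 and 15.2 in the old pools. Its difference was 0.25 (-0.15 to 0.66) under TMM, 0.14 to 0.36 without 1 pool and -0.24 with total counts. Gabarapl2, at 25 to 41 counts, gave 0.43 with an interval of -0.41 to 1.26, so its sign was not resolved at this depth. Without 1 pool its difference ranged from 0.14 to 0.79. Gabarapl1 overlapped between ages.

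Map1lc3a, the gene of LC3A, was near the detection limit. It had 14 and 15 counts in the young and 2 and 7 in the old pools, or 0.966 and 0.994 against 0.151 and 0.573 normalized CPM. It passed the filter on low counts through the young pools alone, where it was higher, and the old pool 1 lay below the detection limit, so its direction is not evidence of a difference. The fitted log2 fold change of -1.43 depends on the prior count and had an interval of -3.33 to 0.47.

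Of the cargo receptors, Sqstm1 had 6.97 and 6.96 normalized CPM in the young and 5.60 and 4.83 in the old pools, both old pools being lower (log2 fold change -0.41, -0.94 to 0.11, edgeR adjusted p = 0.428). Pink1, the kinase that marks damaged mitochondria for mitophagy, had 13.7 and 9.87 in the young and 13.9 and 17.4 in the old pools. Its lower old pool was only just above its higher young pool, and the difference was 0.41 (-0.02 to 0.84, edgeR adjusted p = 0.319), ranging from 0.19 to 0.66 without 1 pool. Bnip3l (NIX), a mitophagy receptor on the organelle itself, had 17.0 and 17.4 in the young and 20.4 and 22.4 in the old pools, with a difference of 0.31 (-0.03 to 0.66).

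Both of these mitophagy genes were above 0 under TMM and below 0 with total counts, where they stood 0.41 and 0.32 above the shift of all genes. The share of mitochondrial transcripts was also higher in both old pools, as it is beside any gene with both old pools higher (24.0% of all genes tested). Within each age Pink1 was higher in the pool with the lower share, and Bnip3l only in the old pools. The part of that share in their differences was not tested. Bnip3l shared 20.8% of its 50-base stretches with other genes of the annotation, so its counts may be split with near-identical copies. Nbr1 and Optn, the remaining receptors tested, overlapped between ages.

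The 2 transcription factors differed in sign under TMM. Tfeb had 31 and 45 counts in the young and 20 and 20 in the old pools, or 2.14 and 2.98 against 1.51 and 1.64 normalized CPM. Both old pools were lower, and the log2 fold change of -0.70 had an interval of -1.64 to 0.24. Without 1 pool it ranged from -0.92 to -0.45. Tfe3 had 12.9 and 8.55 in the young and 10.9 and 11.7 in the old pools, which lay between the young ones, with a difference of 0.08 (-0.39 to 0.54) under TMM and -0.43 with total counts.

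The genes with CACGTG in the promoter window did not stand on one side. Of the 12 tested, 8 had log2 fold changes above 0, with a median of 0.09 and a range of -0.45 to 0.68. Of the 23 tested genes whose window lacked it, 13 were above 0, with a median of 0.07. The 6 genes with TCACGTGA ranged from -0.45 (Mcoln1) to 0.32 (Atp6v1a).

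Among the cathepsins and lumenal proteins, Ctsh was the gene that passed the test. Of the 12 genes 11 were tested, 1 was called higher (9.09%, beside 1.63% of all genes) and 0 lower. At an unadjusted p under 0.05, 2 (Ctsh and Ctsc) were higher and 1 (Hexa) lower, or 27.3% beside 16.9% of all genes. These shares rest on 1 and 3 genes, and nothing is read from them about the group. Of the 11, 6 differences were above 0 and 5 below. The median of 0.11 lay between -0.09 and 0.03 when any 1 pool was left out, and total counts gave -0.39.

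Ctsh encodes cathepsin H, an aminopeptidase of the papain family, at chr9:90054152-90076089 (+ strand, GRCm38). It had 326 and 338 counts in the young and 446 and 435 in the old pools, or 22.5 and 22.4 against 33.8 and 35.6 normalized CPM. Both old pools lay above both young ones, and the gap exceeded the difference between pools of either age. The means were 22.4 ± 0.0668 and 34.7 ± 1.33 (SD, n = 2 per age), a fold of 1.54. The log2 fold change was 0.63 ± 0.14 (SE), with a 95% interval of 0.32 to 0.93 and an edgeR adjusted p of 0.026.

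The sum of the 9 enterocyte markers was higher in both old pools, like the levels of Ctsh, Lamp2 and Atg5. It was 494 and 636 normalized CPM in the young and 997 and 908 in the old pools. Of the 9 markers, 3 (Fabp1, Fabp2 and Sis) were called higher and 0 lower, and Apoa1, Apoa4, Lct and Vil1 overlapped between ages. The part of these cells in the levels of the 3 genes was not tested. The goblet cell markers overlapped between ages, with sums of 1945 and 2563 in the young and 2657 and 2069 in the old pools and none called. The tuft cell markers summed to 3.04 and 4.97 in the young and 8.40 and 5.24 in the old pools, with 1 of the 6 markers called (Dclk1, 4, 4, 42 and 19 counts). Dclk1 passed the filter through the old pools alone, so its call had that direction by construction, and Pou2f3, at 32, 42, 30 and 25 counts, overlapped between ages.

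The call on Ctsh held in 12 of 16 alternatives. It was lost with DESeq2 (adjusted p = 0.0501), without the young pool 1 (0.143), without the young pool 2 (0.0964), and with total counts (0.528), where the log2 fold change was 0.14, or 0.63 above the shift of all genes. In the other alternatives the log2 fold change stayed between 0.59 and 0.67. No exon of another gene overlapped it, and 0.06% of its 50-base stretches occurred in another gene.

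Ctsc, or dipeptidyl peptidase I, had 13.2 and 12.0 normalized CPM in the young and 14.8 and 21.1 in the old pools. Both old pools were higher, with means of 12.6 ± 0.837 and 18.0 ± 4.45 (SD, n = 2 per age) and a log2 fold change of 0.51 (0.10 to 0.92, edgeR adjusted p = 0.187). The old pools differed from each other by more than the young ones did. Without the old pool 1 the difference was 0.75 and passed (edgeR adjusted p = 0.0158, in a fit that called 2.91% of all genes higher), and over the 4 fits that each left out a pool it ranged from 0.24 to 0.75.

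Ctsb, Ctsa and Ctss were each highest in the old pool 1. Ctsb, the cysteine protease cathepsin B, had 62.9, 65.3, 83.5 and 60.3 normalized CPM in the young pools 1 and 2 and the old pools 1 and 2. Ctsa, which protects other lysosomal enzymes, had 25.2, 20.0, 29.9 and 18.8 in that order. Ctss, the cathepsin of antigen-presenting cells, had 8.35, 13.3, 16.3 and 9.99.

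For these 3 genes the old pool 2 lay below the mean of the young pools, and the ages overlapped. Their log2 fold changes of 0.17, 0.11 and 0.28 became -0.09, -0.27 and -0.11 without the old pool 1. With total counts all 3 were below 0 but 0.10 to 0.30 above the shift of all genes. That pool held the highest sum of the 8 Paneth cell markers, 2065 normalized CPM against 717 to 928 in the other pools, with Defa17 and Defa24 called higher in old ISCs. It also held the highest goblet, enterocyte, tuft and leukocyte sums, and the part of these cells in the cathepsin values was not tested.

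Leukocytes, which are rich in cathepsins, were looked for by 18 markers. These summed to 229 and 262 counts in the young and 339 and 302 in the old pools, most of it from Itgam, Ccr2 and Cd68, the 3 that were tested. Itgam was called higher in old ISCs (148, 196, 254 and 252 counts), as was Ccr2 (0, 0, 13 and 16 counts), which passed the filter through an old pool alone. Cd68, the macrophage marker, had both old pools lower (63, 41, 30 and 22 counts, log2 fold change -0.79, edgeR adjusted p = 0.321), and Csf1r had 4, 3, 2 and 1 counts. The other 15 summed to 18 and 25 counts in the young and 42 and 12 in the old pools, Adgre1, Tyrobp and Itgax were at 0 in every library, and Ptprc (CD45) had 0, 0, 2 and 0 counts. The part of leukocytes in the cathepsin values was not tested.

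The 3 lumenal proteins of the list that are no proteases were all below 0, while 36 other lumenal hydrolases split into 19 above 0 and 17 below, with a median of 0.02. Hexa, the alpha chain of beta-hexosaminidase, which degrades gangliosides, had 12.1 and 13.6 normalized CPM in the young and 9.23 and 9.50 in the old pools. The old pools were both lower, with a log2 fold change of -0.46 (-0.88 to -0.04, edgeR adjusted p = 0.249). Gaa, the acid alpha-glucosidase of glycogen breakdown, had 9.31 and 8.95 in the young and 6.89 and 7.29 in the old pools, a difference of -0.37 (-0.83 to 0.10), and Npc2, a cholesterol carrier, overlapped between ages.

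With GC offsets the difference of Gaa became -0.15, and the median of the 3 genes, -0.37 under TMM, is given without a test. Ctsd, the aspartic protease cathepsin D, had 10.8 and 9.48 normalized CPM in the young and 6.74 and 9.42 in the old pools, the old pool 2 being only just below the young pool 2 (log2 fold change -0.33, -0.80 to 0.15). Without 1 pool this ranged from -0.59 to -0.10. Its exons shared 808 bases with the same-strand gene Gm49369, so its counts depend on how shared reads were counted. Ctsl and Ctsz overlapped between ages.

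**Figure D3:**
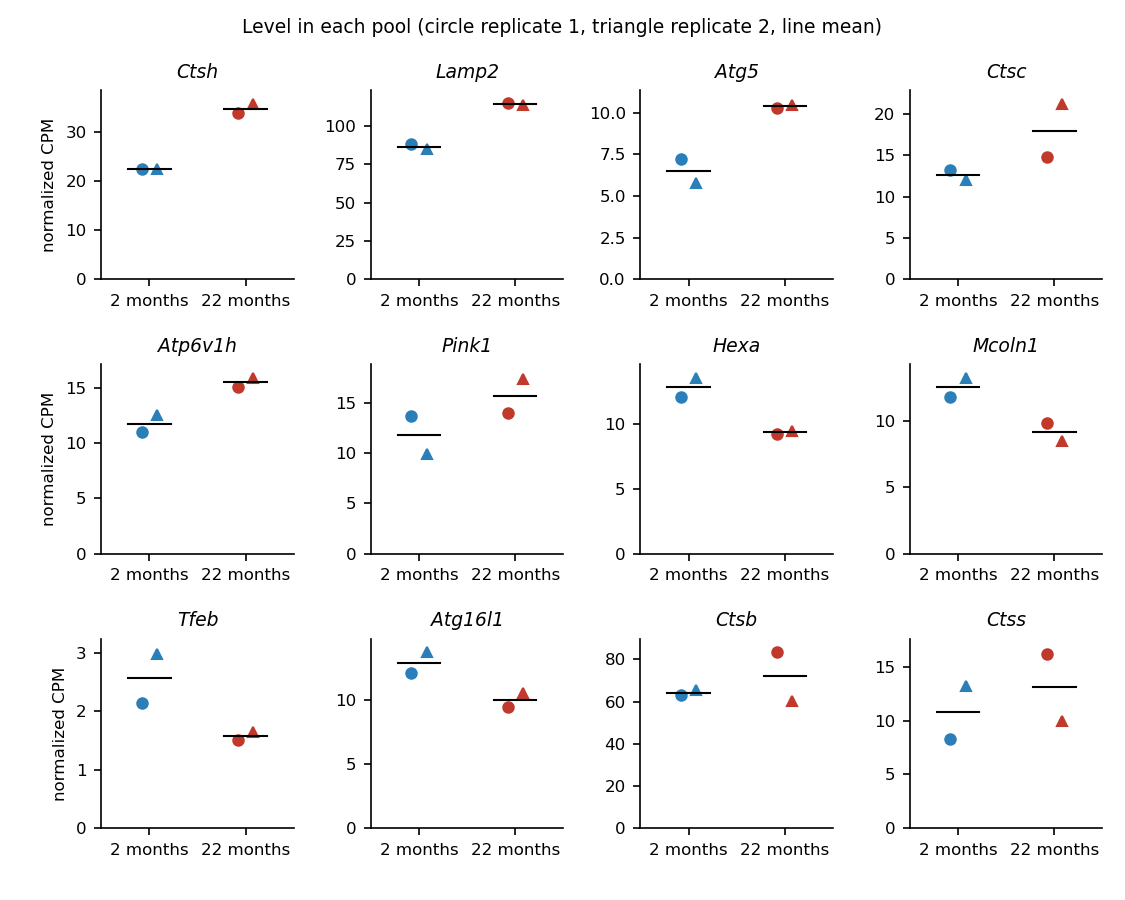
Normalized CPM in each pool (circle replicate 1, triangle replicate 2, line the mean of 2 pools; each axis starts at 0) for 12 genes at 2 months (blue) and 22 months (red). Ctsh, Lamp2 and Atg5 have both old pools above both young ones, Hexa and Mcoln1 have both below, and Ctsb and Ctss overlap between ages.

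The 4 lysosomal membrane genes split evenly, with 2 differences above 0, 2 below and a median of -0.07. None was called, beside 2.26% of all genes. At an unadjusted p under 0.05, 1 was higher and 1 lower, or 50.0% beside 16.9% of all genes. Nothing is read from this share of 4 genes. Lamp2 (chrX:38401357-38456454), a membrane glycoprotein needed for fusion with autophagosomes, had 88.1 and 85.0 normalized CPM in the young and 115 and 114 in the old pools. Both old pools lay above both young ones, and the gap was wider than the difference between pools of either age. The log2 fold change was 0.40 ± 0.12 (SE; 0.16 to 0.65), and the edgeR adjusted p of 0.0802 missed the threshold.

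The side of the threshold depended on the tool for Lamp2, which the paper lists as differentially expressed. It passed with limma voom with sample weights (adjusted p = 0.0464) and without the old pool 2 (edgeR adjusted p = 0.0470, in a fit that called 3.39% of all genes higher). With total counts its log2 fold change was -0.09, or 0.41 above the shift of all genes.

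Lamp1 had 92.1 and 100.2 normalized CPM in the young and 97.5 and 103.4 in the old pools, from 1262 to 1512 counts. The ages overlapped, and the log2 fold change was 0.06 with an interval of -0.19 to 0.31, and -0.43 with total counts. Mcoln1, the calcium channel TRPML1 whose opening activates TFEB, had 11.8 and 13.2 in the young and 9.84 and 8.44 in the old pools. Both old pools were lower, with a log2 fold change of -0.45 (-0.88 to -0.02, edgeR adjusted p = 0.273). Npc1, the cholesterol transporter that works with NPC2, had 22.4 and 24.6 in the young and 20.4 and 20.1 in the old pools, both lower, with -0.21 (-0.54 to 0.12).

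All 4 proton pump genes were above 0 under TMM, with a median of 0.27, and all 4 were below 0 with total counts, where each stood above the shift of all genes. None was called, beside 2.26% of all genes, and 1 had an unadjusted p under 0.05 (25.0%, beside 16.9% of all genes). That gene was Atp6v1h, the H subunit that couples the cytosolic V1 part to the membrane V0 part, with 11.0 and 12.5 normalized CPM in the young and 15.1 and 15.9 in the old pools. The ages did not overlap, and the old pools were higher by 0.40 on the log2 scale (0.01 to 0.79, edgeR adjusted p = 0.289).

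The A and B subunits of the V1 part were lowest in the young pool 1. Atp6v1a, the ATP-hydrolysing A subunit, had 21.4 and 30.3 normalized CPM in the young and 35.0 and 29.4 in the old pools. Atp6v1b2, the nucleotide-binding but not catalytic B subunit beside it, had 13.3 and 21.1 in the young and 21.0 and 19.4 in the old pools. The ages overlapped for both, and their log2 fold changes were 0.32 (-0.04 to 0.67) and 0.23 (-0.18 to 0.64).

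Without the young pool 1 these differences were 0.09 for Atp6v1a and -0.06 for Atp6v1b2. The same pool held the lowest sum of the 7 enteroendocrine cell markers, 40.4 normalized CPM against 94.5 to 152 in the other 3. It also held the lowest goblet, enterocyte, tuft and leukocyte sums, and the part of these cells in the pump values was not tested. Atp6v0d1, the d subunit of the V0 part, had 8.14 and 6.96 in the young and 7.79 and 8.93 in the old pools, which overlapped (0.15, -0.33 to 0.62). Without 1 pool its difference ranged from 0.03 to 0.27.

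**Figure D4:**
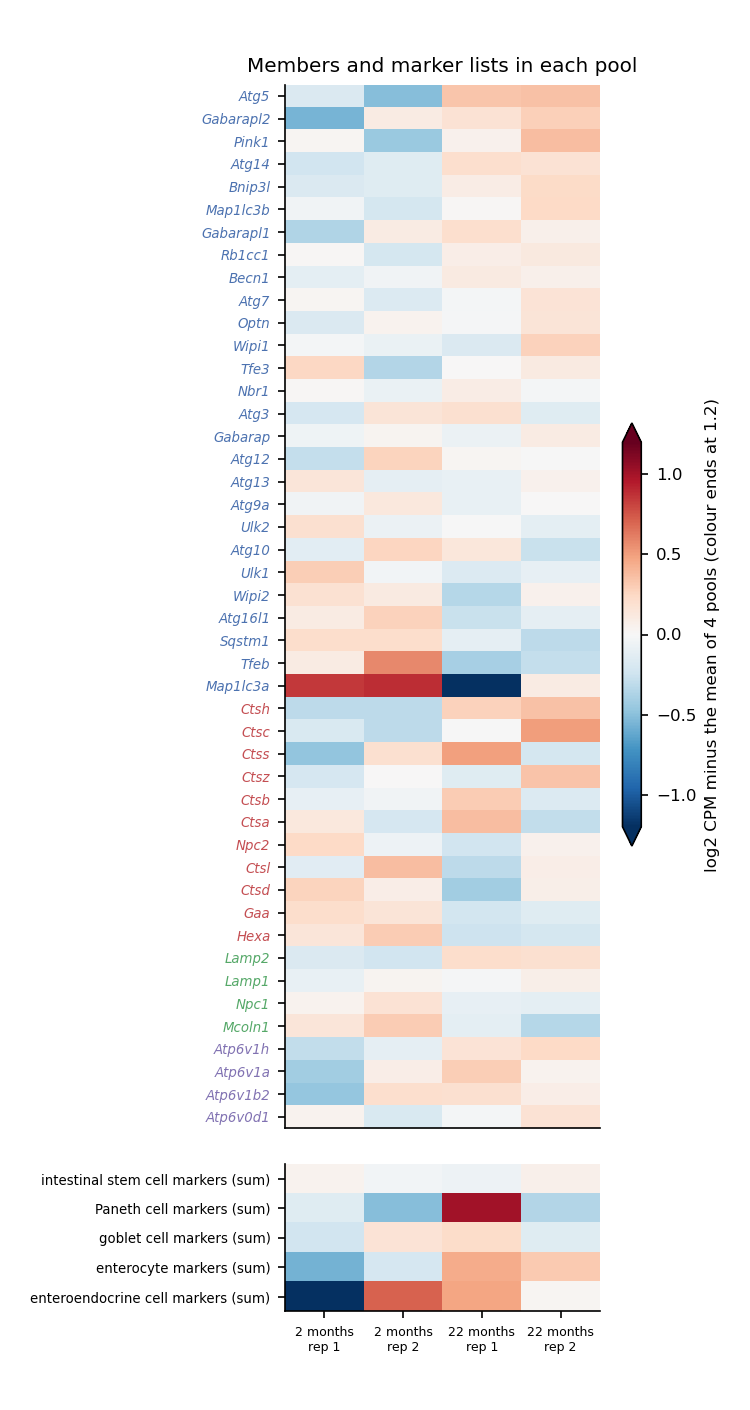
Log2 normalized CPM of each of the 46 genes tested minus its mean over the 4 pools (colour, red above and blue below, ending at 1.2), by pool, with the summed markers of 5 intestinal cell types in the lower panel. Ctsa, Ctsb and Ctss are highest in the old pool 1, as are the Paneth, goblet and enterocyte sums, while Atp6v1a and Atp6v1b2 are lowest in the young pool 1, as are the goblet, enterocyte and enteroendocrine sums.

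Further genes of the same pathways were read from lists of 143 genes, of which 139 were matched and 121 tested. Of these 1 was called higher (1.63% of all genes were) and 0 lower, 11 were higher and 4 lower at an unadjusted p under 0.05 (12.4%, beside 16.9% of all genes), and the median log2 fold change was 0.04. The called gene was Scarb2 (LIMP-2), a lysosomal membrane protein that carries beta-glucocerebrosidase to the lysosome. It had 55.4 and 57.7 normalized CPM in the young and 90.5 and 79.0 in the old pools, both old pools being higher. The means were 56.6 ± 1.64 and 84.7 ± 8.17 (SD, n = 2 per age), with a log2 fold change of 0.58 ± 0.13 (SE) and an edgeR adjusted p of 0.0195.

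The call on Scarb2 was lost without the young pool 1 (edgeR adjusted p = 0.143), without the young pool 2 (0.0508) and with total counts (0.634, log2 fold change 0.09). Among the lists with no call, Snap29, which fuses autophagosomes with lysosomes, had the lowest p of 32 other autophagy genes, with 0.45 (0.13 to 0.77, edgeR adjusted p = 0.131). Rragc, a GTPase of nutrient sensing at the lysosome, led 10 genes of that list with 0.55 (0.09 to 1.01, edgeR adjusted p = 0.201). Ids, the sulfatase of heparan sulfate breakdown, led 36 other lumenal hydrolases with 0.41 (0.06 to 0.77).

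Of 14 other proton pump genes, 8 were above 0 and 6 below. At an unadjusted p under 0.05, 1 was higher and 2 lower (21.4%, beside 16.9% of all genes). Atp6ap2, an accessory protein of the pump, had 26.3 and 25.4 normalized CPM in the young and 34.2 and 32.0 in the old pools, both old pools being higher, with 0.36 (0.06 to 0.66, edgeR adjusted p = 0.206). The 2 lower ones, named after their values were seen, encode forms of the a subunit of the V0 part. Atp6v0a1 had 11.8 and 8.88 in the young and 8.25 and 6.06 in the old pools (-0.53, -1.02 to -0.03), and Tcirg1 had 20.6 and 17.0 in the young and 16.5 and 11.5 in the old pools (-0.42, -0.83 to -0.01). Both had the old pools below the young ones and missed the threshold, with edgeR adjusted p of 0.269 and 0.284. Atp6v0a2, a further form of the a subunit, had 22.4 and 28.9 in the young and 26.0 and 33.1 in the old pools, which overlapped, with 0.20 on the log2 scale. The 5 other cathepsins and inhibitors had no unadjusted p under 0.05, beside 16.9% of all genes. The lowest was that of Ctsf, the gene of cathepsin F, with 15, 4, 3 and 1 counts. Ctsf passed the filter on low counts through the young pool 1 alone, so its direction is not evidence of a difference.

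The differences between ages went with base composition. Across the 46 genes the log2 fold change and the GC content of the longest transcript had a Spearman rho of -0.43 (Pearson r -0.52), beside -0.23 and -0.16 over 13236 genes with annotation, given as a description since genes of 1 set of libraries share amplification and depth. Of 11 genes under 45% GC, 8 were above 0 with a median of 0.31, and of 17 genes over 52% GC, 7 were above 0 with a median of -0.08, while all genes in these classes had medians of 0.11 and -0.14. Lamp2 and Atp6v1h had 38.6% and 37.6% GC, and Tfeb 63.2%. Map1lc3a, at 63.1% GC, is included in these correlations, although its direction is not evidence of a difference.

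With offsets for GC content and length fitted in each library, rho over the 46 genes became -0.26 and that over all genes -0.03. Ctsh, at 50.0% GC, kept a log2 fold change of 0.63 and Lamp2 had 0.35. The difference became smaller in size for 28 of the 46 genes and larger for 18. Atg5 went from 0.68 to 0.52, Bnip3l from 0.31 to 0.17, Tfeb from -0.70 to -0.41 and Ulk1 from -0.27 to -0.06. In the other direction, Pink1 went from 0.41 to 0.54, Map1lc3b from 0.25 to 0.34, Tfe3 from 0.08 to 0.19 and Ctsa from 0.11 to 0.21. The part of base composition in any single difference was not tested.

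**Figure D5:**
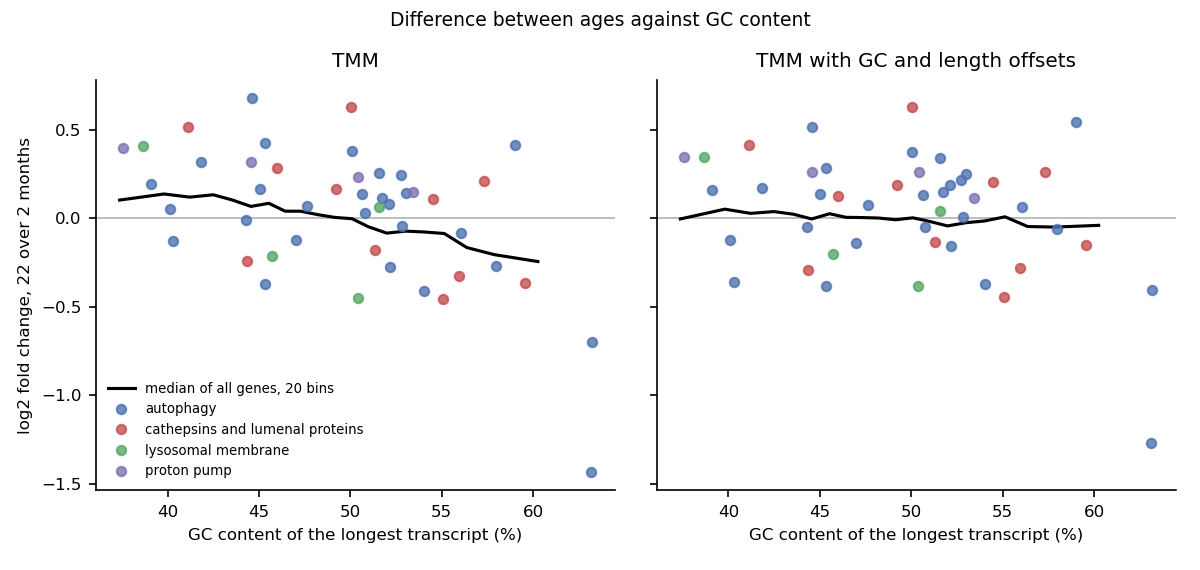
Log2 fold change of old over young ISCs against the GC content of the longest transcript (percent) for the 46 genes tested, with TMM (left) and with GC and length offsets (right); the line is the median of all genes in 20 bins. The line falls from left to right under TMM and lies near 0 with the offsets, and rho over the 46 genes goes from -0.43 to -0.26.

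Counting limits touched some of the genes. Exons of 17 of the 48 overlapped a gene on the opposite strand and those of 4 a gene on the same strand, and 12 shared over 10% of their 50-base stretches with other genes. The strand setting of the counting was not stated, so reads of Becn1 and Cntd1, whose exons overlap over 3104 bases on opposite strands, cannot be told apart here. The same holds for Ctsl and Gm47123 (1742 bases), Sqstm1 and Mrnip (580 bases), and, on the same strand, Atg9a and Gm29253 (1832 bases).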

How the data were processed

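RNA of sorted ISCs was measured in 4 libraries, 2 per age. The authors trimmed reads (Trimmomatic 0.30), aligned them to GRCm38 (STAR 2.4.2a), counted exonic reads of GENCODE vM15 genes with featureCounts and deposited raw counts per gene, not normalized. Multi-mapping and strand settings are not given in the sources used here.

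Groups came from the sample labels. The filter kept genes with over 5 reads and over 1 CPM in any library (13692 of 52459). Ages were compared in edgeR 4.0.16 (R 4.3.3) with TMM, glmQLFit and glmQLFTest, two-sided, without covariates. The fit was tested on simulated data. The authors' limma voom (limma 3.58.1), DESeq2 1.42.0, other scalings and filters, the replicate number as a block, GC and length offsets (lowess span 0.3) and leaving out each pool were alternatives. An exact permutation test of 2 against 2 pools cannot go below p = 0.333, so none is given.

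The 48 genes and all lists were chosen with earlier results of these data known. By rule, values are given for called genes, the 4 lowest p and the highest and lowest level per kb in each group, and genes under 10 counts in an age. Ulk1, Rb1cc1, Sqstm1, Tfeb, Tfe3, Ctsd, Map1lc3b, Gabarapl2, Ctss and Ctsa were added for their roles after their values were seen, as were the order of levels and the marker sums. Exon lengths, positions and GC content came from GENCODE vM21 (GRCm38), promoters from RefSeq.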

Additional observations from a re-analysis of the deposited data

How the results depend on the processing

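The alternatives all ran, with 2 pools per age. Of the 46 genes tested, 1 was called higher, 2 with limma voom, 0 with DESeq2 or total counts, and 0 to 2 without 1 pool, where 0.891% to 3.39% of all genes were; 0 were called lower, but 15 with total counts. Of the 121 pathway genes outside the list, 1 was called higher, 2 with the likelihood ratio test (2.74% of all genes), 0 with total counts and 0 to 3 without 1 pool; 0 were lower, but 36 with total counts, beside 33.3% of all genes, and 0 to 1 without 1 pool. A fit without 1 pool leaves a lone pool in an age, which is assumed to vary like the other age. The replicate numbers did not pair the pools (correlation of same-numbered deviations -0.03 over 8300 genes), and with the replicate number as a block 1 of the 46 and 2 of the 121 were called higher, beside 2.97% of all genes. The median log2 fold change of autophagy genes was -0.43 with total counts and 0.04 to 0.11 without 1 pool. That of cathepsins and lumenal proteins was -0.39 and -0.089 to 0.027. That of the lysosomal membrane was -0.56 and -0.14 to -0.016, and -0.12 with the upper quartile. That of the proton pump was -0.21 and 0.18 to 0.54. Total counts moved the median of all genes by -0.50, so differences between 0 and 0.50 turn sign by construction; 16 named genes did, and each stayed above that shift: Atp6v0d1 (-0.35), Atp6v1a (-0.17), Atp6v1b2 (-0.25), Atp6v1h (-0.091), Bnip3l (-0.18), Ctsa (-0.39), Ctsb (-0.33), Ctss (-0.20), Gabarap (-0.46), Gabarapl2 (-0.052), Lamp1 (-0.43), Lamp2 (-0.089), Map1lc3b (-0.24), Pink1 (-0.088), Rb1cc1 (-0.30) and Tfe3 (-0.43). Gabarap also turned with the upper quartile (-0.014) and the GC and length offsets (-0.049). Without 1 pool the ranges that crossed 0 were -0.060 to 0.59 for Atp6v1b2, -0.11 to 0.65 for Ctss, -0.058 to 0.11 for Gabarap, -0.27 to 0.40 for Ctsa, -0.20 to 0.40 for Tfe3 and -0.089 to 0.38 for Ctsb. At 2 pools per age the median 95% interval of 0.41 to either side on the log2 scale limits what a missed threshold can say.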

Other observations

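Several, but not all, relatives of the genes described that are known from other cell types were at or near 0 in the ISC libraries. Mitf and Tfec, the other members of the TFEB and TFE3 family, were near absent, Mitf with 1, 0, 3 and 0 counts and Tfec with 0 in every library. Ctsk, the cathepsin of osteoclasts, had 5, 3, 2 and 0 counts, Ctsw, that of cytotoxic lymphocytes, had 7, 3, 8 and 0, and Ctsg, that of neutrophils, had 0 in every library. Lamp3, the marker of mature dendritic cells, and the channel gene Mcoln3 were at 0. Of the proton pump, the forms of kidney and osteoclast Atp6v0a4, Atp6v0d2 and Atp6v1b1 had 0 to 1, 1 to 3 and 1 to 3 counts per library. Tcirg1, the a subunit form best known from osteoclasts, was not among these, with 299, 256, 218 and 140 counts. Atp6v0c, a pump gene outside these forms, also had only 8, 11, 9 and 6 counts. A low count alone therefore does not mark a form of another cell type. A count of 0 allows up to 0.199 to 0.246 normalized CPM, so low levels were not detectable at this depth.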
